A study of Rattus norvegicus with 42 samples.

Results

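Transcription factors that specify and mature the GABAergic interneurons of the forebrain were followed in the hippocampus of rat pups that had received a single dose of an anti-seizure drug. The group comprised Lhx6, Dlx1, Dlx2, Dlx5, Sox6, Satb1 and Npas1, chosen by gene symbol, and each was present as 1 RefSeq transcript, so that 7 genes of the 14304 gene symbols (15516 transcripts) in the count table were described. All animals were wild type male Sprague Dawley pups injected intraperitoneally on postnatal day 7 with saline vehicle (VEH, n = 13), phenobarbital at 75 mg/kg (PB, n = 14) or levetiracetam at 200 mg/kg (LEV, n = 14) and returned to the dam. Hippocampi were taken 72 h later, on postnatal day 10, and each library came from 1 animal. Pups came from 2 orders of pregnant dams, with 1 animal per litter in each treatment. The sample codes had 2 forms, 1 for animals 1 to 6 of each treatment (series 1) and another for animals 7 to 14 (series 2), and the code form was used as the batch. The labels do not say what the code forms stand for. A further VEH animal (animal 7) is marked as excluded in its label and was kept out of all comparisons.

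Most interneurons of the hippocampus are born in the medial and caudal ganglionic eminences (MGE and CGE) of the ventral forebrain and migrate into the hippocampus before and around birth. The homeobox factors Dlx1 and Dlx2 act early, in the progenitors of both eminences, and switch on Dlx5 and the genes of GABA synthesis. Lhx6, a LIM homeobox factor, is set up in postmitotic cells of the MGE and is needed for the later parvalbumin and somatostatin cells, with Sox6, an SRY-box factor, and Satb1, a chromatin organizer, acting downstream of it. Npas1, a basic helix-loop-helix PAS repressor, limits the generation of interneurons and is kept in a subset of them. Sox6 is also used by oligodendrocyte precursors, and Satb1 by excitatory neurons of the cortex, so that neither marks interneurons alone.

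In the rn6 genome the members lay on 4 chromosomes. Dlx1 (chr3:58164931-58169522) and Dlx2 (chr3:58180088-58181972) were neighbours separated by 10566 bases. Lhx6 lay on the same chromosome (chr3:15409760-15433316), Npas1 (chr1:78420652-78440739) and Sox6 (chr1:185673177-186182831) on chromosome 1, Dlx5 on chromosome 4 (chr4:32387741-32392008) and Satb1 on chromosome 9 (chr9:2202511-2274632). The 41 libraries held between 9499494 and 14488125 estimated counts. Over all transcripts 13.7% of values were not whole numbers, because reads that fit several transcripts are shared out, but no value of a member was fractional. All 7 members passed the filter on low counts, which left 13062 transcripts. Levels are given as CPM, counts scaled to a common library size, which do not correct for transcript length, so that they compare animals and not genes. Whether the libraries kept strand is not given in the sources used here, so reads of an antisense transcript at the Dlx1 locus could not be told apart from those of Dlx1.

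The upstream sequences of Sox6 and Npas1 are shown because these were the members whose levels passed a test between groups. Both are the 250 bases before the gene's start in RefSeq (build GRCr8, minus strand, written 5′ to 3′ on the strand of the gene), taken at chr1:179665372-179665621 for Sox6 and chr1:86314894-86315143 for Npas1. Capitals mark matches, on either strand, to TAATTA (a core read by homeodomain factors such as the Dlx proteins and Lhx6), CACGTG (an E-box), ACGTG (a core of bHLH-PAS sites, which every CACGTG contains) and ACAAT (a core of SOX factors).
Sox6: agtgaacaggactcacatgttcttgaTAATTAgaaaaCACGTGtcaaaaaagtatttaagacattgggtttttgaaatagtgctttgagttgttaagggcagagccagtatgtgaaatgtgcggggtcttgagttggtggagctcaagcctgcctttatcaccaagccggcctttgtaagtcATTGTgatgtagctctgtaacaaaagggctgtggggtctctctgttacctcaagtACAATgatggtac
Npas1: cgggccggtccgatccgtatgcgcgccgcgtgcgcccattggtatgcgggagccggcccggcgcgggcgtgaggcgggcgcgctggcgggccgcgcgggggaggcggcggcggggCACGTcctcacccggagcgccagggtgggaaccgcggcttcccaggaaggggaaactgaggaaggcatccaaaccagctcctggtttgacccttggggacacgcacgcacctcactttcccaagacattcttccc

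The Sox6 sequence held TAATTA from base -224, CACGTG from base -213 and ACAAT from bases -68 and -13, counted from the start. The Npas1 sequence held only ACGTG, from base -135. Over the windows of 300 bases around the start (250 before and 50 after), TAATTA occurred in 5.36% of 33469 RefSeq windows, CACGTG in 6.42%, ACGTG in 19.3% and ACAAT in 33.7%. The Sox6 window had a GC content of 42.0% and the Npas1 window 70.3%, against a median of 51.7% over all windows. Among the other members, Satb1 had ACAAT at base -55, Lhx6 and Dlx1 had none of these letters in their windows, and Dlx2 and Dlx5 had no entry.

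The first question was whether either drug changed these factors 72 h after exposure. None of the 7 members was differentially expressed (adjusted p under 0.05 with a log2 fold change beyond 0.32 in either direction) after PB or LEV. Over all transcripts tested, 0.605% were differentially expressed in PB against VEH, 0.0% in LEV against VEH (edgeR; 5 transcripts by DESeq2, and 5.84% at an unadjusted p under 0.05 by edgeR) and 0.582% in PB against LEV. Npas1 was the only member with an adjusted p under 0.05, and DESeq2 also counted 1 such member in PB against VEH, 0 in LEV against VEH and 1 in PB against LEV. It was lower in PB-treated animals than in VEH and LEV animals, by a fold below the limit. Transcripts with an adjusted p under 0.05, whatever their fold, made up 5.39% of those tested in PB against VEH (3.46% lower), 0.00766% in LEV against VEH and 4.45% in PB against LEV (2.78% lower). The PB and LEV comparisons share the VEH animals, and PB against LEV shares each drug group, so the 3 are not independent. In whole tissue, fewer cells that express a factor and less of its RNA per cell cannot be told apart.

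**Figure D1:**
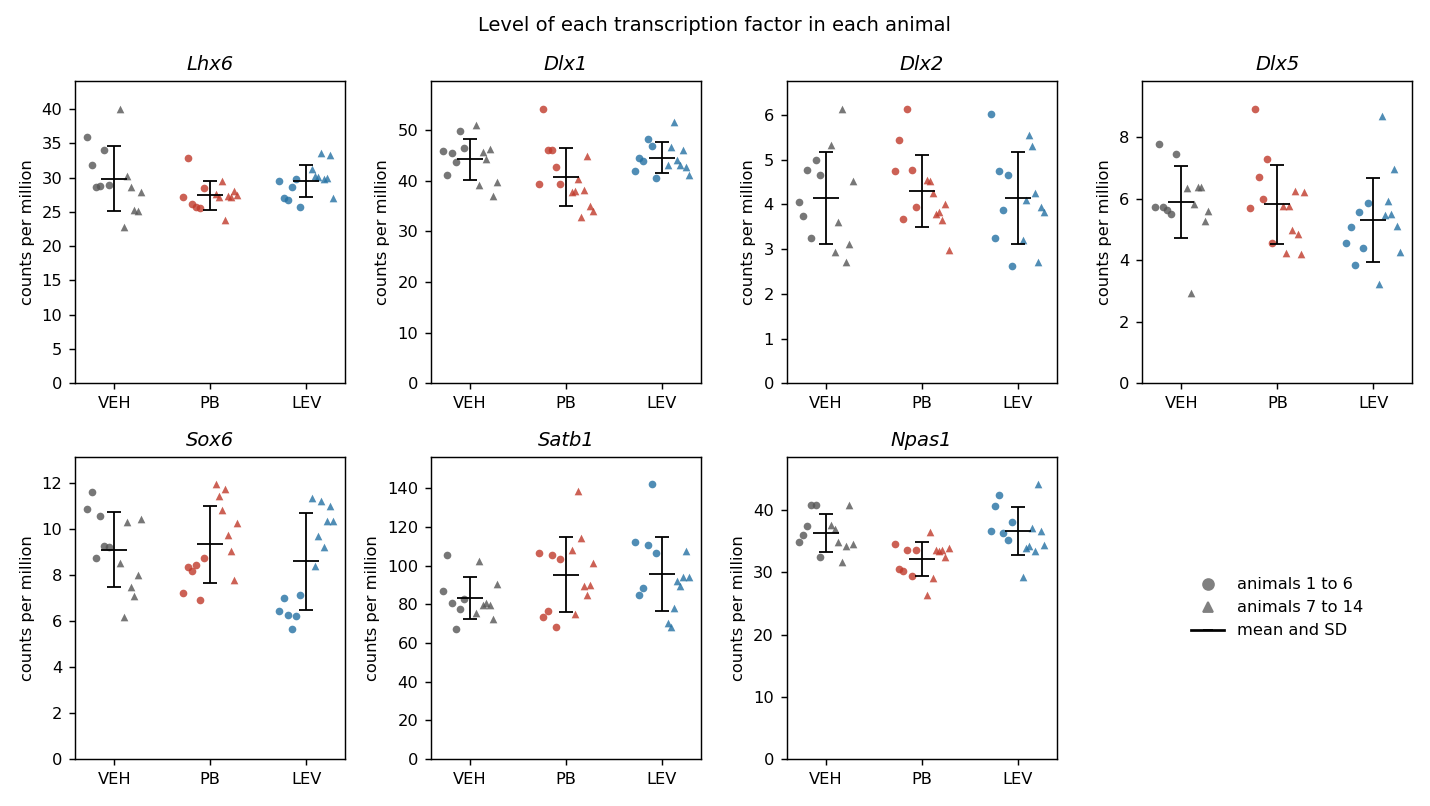
Level of each member in each animal (CPM, axes from 0) in the VEH, PB and LEV groups, with circles for animals 1 to 6, triangles for animals 7 to 14 and bars for the mean and SD. Npas1 in PB lies below the other groups by their means (32.2 against 36.4 in VEH and 36.6 in LEV), and Sox6 splits by series in LEV (5.64 to 7.12 in series 1 and 8.41 to 11.4 in series 2), with some overlap of the series in PB.

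The early-acting Dlx genes did not pass the test in any of the 3 comparisons. Dlx1 had a median of 45.4 CPM in VEH animals (range 37.0 to 51.0), 39.4 CPM in PB (32.9 to 54.3) and 44.0 CPM in LEV (40.5 to 51.6). The groups overlapped. Of the 14 PB animals, 9 lay below the lowest LEV animal and 3 below the lowest VEH animal, but PB animal 2 had the highest level of all 41. The log2 fold change was -0.12 (SE 0.05) in PB against VEH and -0.14 (SE 0.05) in PB against LEV, with 10 of 14 PB animals below the mean of their own series in each case. These did not pass edgeR (quasi-likelihood, Benjamini-Hochberg) (adjusted p = 0.187 and 0.130, unadjusted p = 0.0293 and 0.0136). Without PB animal 2 the PB against LEV difference was -0.17, with an adjusted p of 0.0399 in the same edgeR test. In LEV against VEH the log2 fold change was 0.01 (95% interval -0.09 to 0.12).

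Dlx2 and Dlx5 were measured from few reads, with 26 to 78 counts per animal for Dlx2 and 30 to 105 for Dlx5. Dlx2 had medians of 4.06 CPM in VEH (2.71 to 6.14), 4.13 CPM in PB (2.97 to 6.14) and 4.03 CPM in LEV (2.61 to 6.02). Dlx5 had medians of 5.73 CPM in VEH (2.93 to 7.78), 5.77 CPM in PB (4.19 to 8.93) and 5.28 CPM in LEV (3.21 to 8.69). All groups overlapped over most of their range. The log2 fold changes of Dlx2 were 0.05 in PB against VEH (95% interval -0.20 to 0.31) and 0.0042 in LEV against VEH (-0.25 to 0.26). Those of Dlx5 were -0.02 (-0.26 to 0.23) and -0.14 (-0.39 to 0.11). A fall of Dlx5 as large as the fold limit after LEV lies inside this interval. Counting alone gives a coefficient of variation of 14.4% for Dlx2 and 12.4% for Dlx5, beside 22.4% observed for each over the 41 animals.

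Lhx6, the postmitotic factor of MGE interneurons, had a median of 28.8 CPM in VEH (22.9 to 40.1), 27.2 CPM in PB (23.8 to 32.9) and 29.8 CPM in LEV (25.8 to 33.6). The VEH animals spread most, from VEH animal 9, the lowest of the 41, to VEH animal 8, the highest. In PB, 12 of 14 animals were below the VEH mean of their series, and the log2 fold change was -0.12 (SE 0.06, unadjusted p = 0.0449 and adjusted p = 0.233 by edgeR (quasi-likelihood, Benjamini-Hochberg)). LEV and VEH differed by -0.02 (95% interval -0.14 to 0.10) and PB and LEV by -0.10 (-0.22 to 0.01). At an unadjusted p under 0.05 in PB against VEH, Lhx6, Dlx1 and Npas1 were lower and Satb1 was higher, 4 of 7 members, where 20.2% of all transcripts passed that limit. In PB against LEV, Dlx1 and Npas1 were lower at that limit, 2 of 7, where 19.6% of all transcripts passed.

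Npas1 had a median of 36.1 CPM in VEH animals (31.6 to 40.9), 33.5 CPM in PB (26.3 to 36.5) and 36.5 CPM in LEV (29.3 to 44.2). The PB group was shifted down but overlapped the others: 5 of 14 PB animals lay below the lowest VEH animal, and all 14 lay below the LEV median. The mean was 32.2 ± 2.7 CPM (SD, n = 14) in PB, 36.4 ± 3.06 CPM (n = 13) in VEH and 36.6 ± 3.86 CPM (n = 14) in LEV. In PB against VEH the log2 fold change was -0.18 (SE 0.05, 95% interval -0.28 to -0.07), a fold of 0.885, with an adjusted p of 0.0325 by edgeR (quasi-likelihood, Benjamini-Hochberg). In PB against LEV it was -0.18 (SE 0.05, 95% interval -0.29 to -0.08, adjusted p = 0.0256 in the same test). In each case 13 of 14 PB animals were below the comparison group's mean in their own series. LEV and VEH differed by 0.01 (95% interval -0.09 to 0.11).

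Npas1 was lower after PB in each series, by -0.21 (SE 0.08) in series 1 and -0.15 (SE 0.07) in series 2 on the log2 scale, and the difference between the series did not pass the test (0.07, SE 0.10, unadjusted p = 0.521 and adjusted p = 0.871 by edgeR). In series 1 the PB animals (29.4 to 34.6 CPM) did not overlap the LEV animals (35.3 to 42.4 CPM), as for 1.68% of all transcripts. Within a single series the PB against VEH difference did not pass (adjusted p = 0.308 and 0.200 in the edgeR model with group-by-series terms). The adjusted p lay close to the limit: when animals were left out in turn it ranged from 0.0211 to 0.0674 and stayed under 0.05 in 33 of 41 cases. It was above 0.05 without VEH animals 4, 5 or 13 or PB animals 2, 3, 5, 7 or 9. With animal number as a replicate block it was 0.0696, and with the level of Tbr1, a factor of excitatory neurons, as a covariate 0.0564. Tbr1 was picked after its values were seen from a list of 5 pyramidal neuron transcripts. It was the 1 transcript of that list above 0 in PB against VEH, and the other 4 were below 0. PB against LEV stayed under 0.05 in 37 of 41 cases, with the exceptions of PB animal 7 and LEV animals 2, 3 and 12 (0.0526 to 0.0567). It was 0.0567 with the 18S ribosomal RNA share as a covariate and 0.0610 with the excluded VEH animal added back (edgeR).

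**Figure D2:**
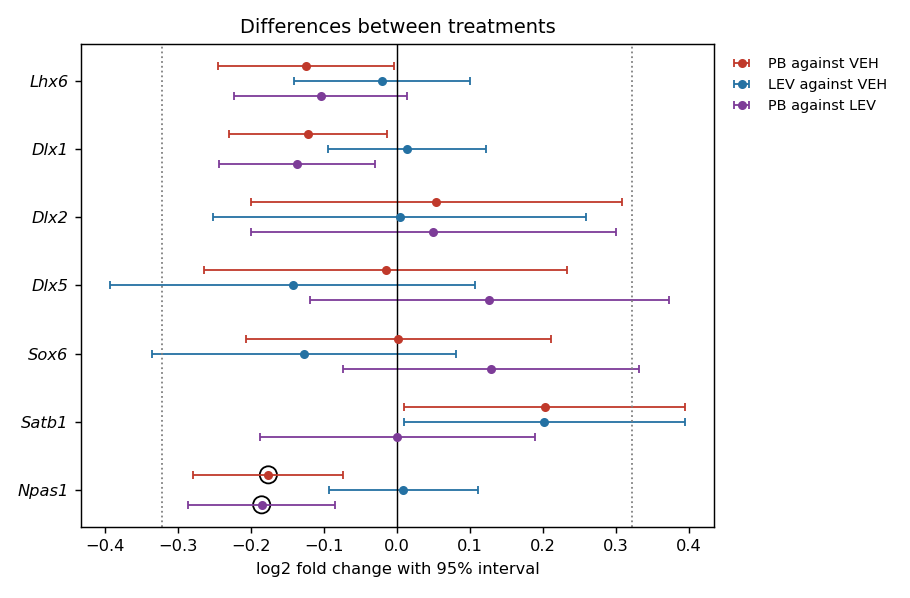
Log2 fold change of each member in PB against VEH, LEV against VEH and PB against LEV, with 95% intervals, dotted lines at 0.32 in either direction and rings around the values with an adjusted p under 0.05. Only Npas1 in PB against VEH and PB against LEV (-0.18 each) is ringed, and both lie inside the dotted lines.

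Satb1 was higher in both drug groups at the unadjusted level only. Its median was 80.6 CPM in VEH (67.4 to 105), 95.8 CPM in PB (68.2 to 138) and 92.9 CPM in LEV (68.4 to 142). In each drug group 5 of 14 animals lay above the highest VEH animal, while the lowest animals of the 3 groups were alike. The log2 fold change was 0.20 (SE 0.10) in PB against VEH and 0.20 (SE 0.10) in LEV against VEH, and neither passed edgeR (quasi-likelihood, Benjamini-Hochberg) (adjusted p = 0.219 and 0.837, unadjusted p = 0.0396 and 0.0402). The unadjusted limit was passed by 5.84% of all transcripts in LEV against VEH. PB and LEV differed by 0.00082 (95% interval -0.19 to 0.19). The differences from VEH varied with the covariate in the edgeR model. With the 18S ribosomal RNA share they were 0.13 in PB and 0.067 in LEV. With the Tbr1 level they were 0.0084 and 0.11, and with the level of choroid plexus markers 0.22 and 0.22.

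Sox6 did not pass the test when the series were combined (adjusted p = 0.993 for PB and 0.930 for LEV against VEH by edgeR), with medians of 9.21 CPM in VEH (6.15 to 11.6), 8.89 CPM in PB (6.93 to 11.9) and 8.82 CPM in LEV (5.64 to 11.4). The log2 fold change was 0.0025 in PB against VEH (95% interval -0.21 to 0.21) and -0.13 in LEV against VEH (-0.33 to 0.08). The combined values covered opposite differences in the 2 series. In series 1, VEH animals had 8.73 to 11.6 CPM (median 9.90), PB animals 6.93 to 8.73 CPM (median 8.25) and LEV animals 5.64 to 7.12 CPM (median 6.36). All 6 LEV animals lay below all 6 VEH animals with a clear gap, and all 6 PB animals also lay below them, with the highest PB and lowest VEH animal nearly equal. Such a lack of overlap was found for 3.17% of all transcripts in LEV against VEH and 1.36% in PB against VEH. Among all transcripts 1.45% had an adjusted p under 0.05 in LEV against VEH within series 1, and 6.32% in PB against VEH within series 2. In series 2 both drug groups had higher medians than VEH. VEH animals had 6.15 to 10.5 CPM (median 7.99), PB animals 7.80 to 11.9 CPM (median 10.5) and LEV animals 8.41 to 11.4 CPM (median 10.3). Here the groups overlapped, with 7 of 8 PB animals and 8 of 8 LEV animals above the VEH median.

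The LEV effect on Sox6 was -0.64 (SE 0.11) on the log2 scale in series 1 and 0.30 (SE 0.10) in series 2, with adjusted p = 0.000653 and 0.650 in the edgeR model with group-by-series terms. The difference between the series was 0.94 (SE 0.15, 95% interval 0.63 to 1.24) and passed the edgeR test of the interaction (adjusted p = 0.00032), as did 0.842% of all transcripts. It passed with each of the 41 animals left out in turn (0.88 to 1.00). When the excluded VEH animal, which had 19.4 CPM of Sox6 and belongs to series 2, was added back, the difference was 0.71 and no longer passed (adjusted p = 0.267 in the same edgeR test). The PB effect was -0.33 (SE 0.11) in series 1 and 0.32 (SE 0.10) in series 2, with adjusted p = 0.262 and 0.0460 by edgeR in the model with group-by-series terms. Fitted on series 2 alone, the PB difference was also 0.32 but did not pass (adjusted p = 0.104 by edgeR). Its difference of 0.65 (SE 0.15) had an unadjusted p of 8.15e-05 and an adjusted p of 0.0807 by edgeR, where 0.0689% of all transcripts passed. This call turned on single animals, since the adjusted p was 0.0273 without VEH animal 10, 0.0282 without VEH animal 14 and 0.0292 without PB animal 13.

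The share of 18S ribosomal RNA also differed by series and group. Its median was 1.12% of counts in VEH, 1.15% in PB and 1.03% in LEV in series 1, and 1.13%, 0.694% and 0.507% in series 2, so that the drug groups of series 2 were low in 18S and high in Sox6. Across the 41 animals, with group and series means removed, Sox6 and the 18S share had a Pearson's r of -0.398 (permutation test, p = 0.00977, adjusted p = 0.0601) and a Spearman's rho of -0.480 (adjusted p = 0.0451), with r = -0.628 in series 1, -0.257 in series 2 and -0.375 without the 2 animals farthest from the median. With the 18S share as a covariate the LEV difference between series was 0.97 (adjusted p = 0.00319 by edgeR). Beyond this covariate the part of the 18S share in the Sox6 values was not tested.

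By their medians, the summed markers of oligodendrocyte precursors, cells that also use Sox6, differed from VEH in the direction of Sox6 in each series. The summed level of that list (11 transcripts of 8 genes, Sox6 not among them) had medians of 1013 CPM in VEH, 969 CPM in PB and 915 CPM in LEV in series 1. There the LEV animals (845 to 956 CPM) did not overlap the VEH animals (969 to 1048 CPM). Among single transcripts such a lack of overlap was found for 3.17% in that comparison. Olig1 and Pdgfra made up much of the sum (medians of 251 and 244 CPM in VEH). In series 2 both drug groups lay above VEH, as for Sox6, with medians of 970, 999 and 1028 CPM in VEH, PB and LEV. LEV was highest in this list, whereas PB and LEV were nearly equal for Sox6. The part of these cells in the Sox6 values was not tested.

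**Figure D3:**
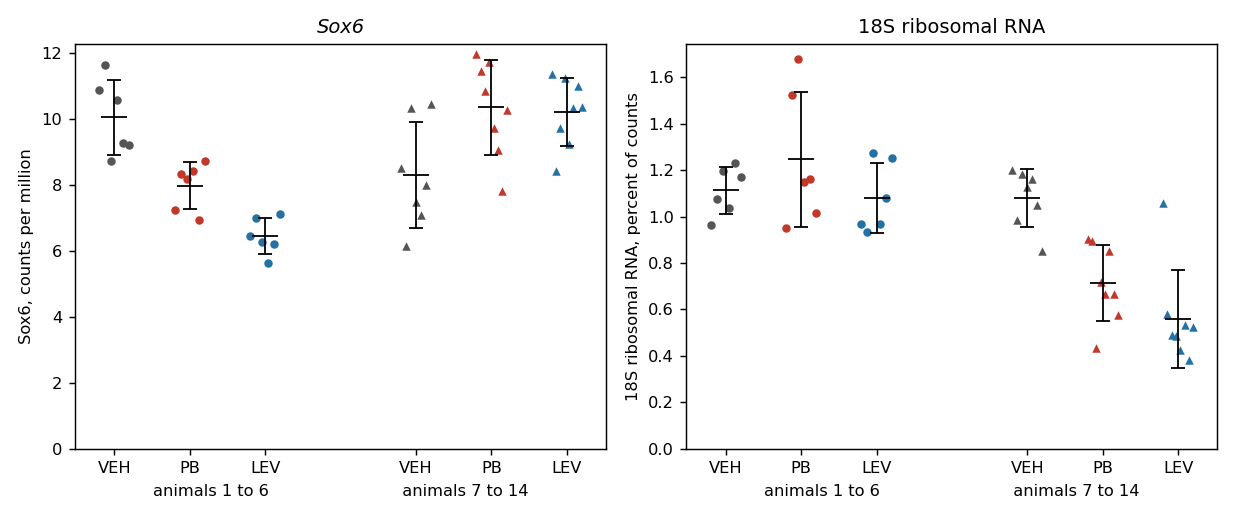
Sox6 in CPM and the share of counts from 18S ribosomal RNA in percent, for VEH, PB and LEV animals of series 1 (animals 1 to 6, circles) and series 2 (animals 7 to 14, triangles), with bars for the mean and SD. Sox6 has medians of 9.90, 8.25 and 6.36 in VEH, PB and LEV of series 1 and of 7.99, 10.5 and 10.3 in series 2, where the median 18S share of the drug groups is lowest.

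No other member had a difference between series with an adjusted p under 0.05 in the edgeR test. Lhx6 came nearest after LEV, with -0.17 in series 1 and 0.10 in series 2 (difference 0.27, SE 0.12, unadjusted p = 0.0245, a limit of 0.05 that 12.8% of all transcripts passed, adjusted p = 0.304 by edgeR). Without VEH animal 8 this difference was 0.37, with an adjusted p of 0.0468 by edgeR. For Satb1 after LEV the values were 0.37 and 0.06, and for Dlx5 -0.36 and 0.02. In PB, Dlx1 was -0.02 in series 1 and -0.20 in series 2 (adjusted p = 0.538 for the difference by edgeR).

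The spread of Satb1 between animals went far beyond counting error. Its coefficient of variation over the 41 animals was 19.3%, where its 716 to 1559 counts per animal give 3.09% from counting alone. For Lhx6 the values were 11.5% and 5.50%, for Dlx1 10.9% and 4.50%, for Npas1 10.8% and 5.00% and for Sox6 20.0% and 9.87%. With group and series means removed, the transcripts whose levels were most like Satb1 were Grm2 (a metabotropic glutamate receptor, r = 0.924), Dok5 (r = 0.894, a docking protein) and Asap1 (r = 0.884, a regulator of Arf GTPases). Spearman's rho was 0.912, 0.915 and 0.866, and r lay between 0.845 and 0.939 in the single series. Grm2 itself did not pass the test after PB (log2 fold change 0.03, adjusted p = 0.902 by edgeR).

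Satb1 was set against 2 lists of excitatory neuron genes, which gave different relations. Against the pyramidal neuron list (5 transcripts) its Pearson's r was 0.289 and Spearman's rho 0.157 (permutation test over 77 relations between members and lists or the 18S share, adjusted p = 0.235 and 0.585). Against the dentate granule list (Prox1, Neurod1, C1ql2 and Calb1) Pearson's r was -0.627 and rho -0.642, each with a permutation p of 1e-05, the smallest that 100000 permutations can give, and an adjusted p of 0.00077. This relation was present in series 1 (r = -0.809), in series 2 (r = -0.506) and without the 2 animals farthest from the median (r = -0.571). Prox1 and Calb1 also mark some interneurons. Within the pyramidal list, Tbr1, a transcription factor of excitatory projection neurons, was picked out after its values were seen. It had r = 0.874 and rho = 0.855 to Satb1 (permutation test, adjusted p over the 5 transcripts = 5e-05 each). The other 4, Slc17a7, Neurod2, Neurod6 and Camk2a, had r of 0.117, 0.0070, -0.063 and -0.143 and rho of -0.124, -0.155, -0.024 and -0.273 (lowest adjusted p = 0.782 for r and 0.211 for rho in the same permutation test). Tbr1 ranged from 62.0 to 125 CPM in VEH animals, 72.9 to 148 CPM in PB and 73.9 to 134 CPM in LEV, a wide spread within each group.

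The summed pyramidal list ranged from 1987 to 2555 CPM in VEH, 1635 to 2249 CPM in PB and 1755 to 2364 CPM in LEV, and the dentate granule list from 187 to 319 CPM, 203 to 272 CPM and 200 to 261 CPM. Against VEH, 1 of 5 pyramidal and 0 of 4 dentate transcripts had an adjusted p under 0.05 after PB, where 5.39% of all transcripts did. Tbr1 itself had a log2 fold change of 0.20 (SE 0.10, adjusted p = 0.213 by edgeR) in that comparison, and the other 4 pyramidal transcripts had values below 0 (-0.26 to -0.03). With Tbr1 as a covariate, the Satb1 log2 fold change in PB against VEH was 0.0084 (SE 0.05, adjusted p = 0.955 by edgeR). In LEV against VEH it was 0.11 (SE 0.05, adjusted p = 0.684 in the same test). Beyond this covariate the part of these markers in the Satb1 difference was not tested.

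**Figure D4:**
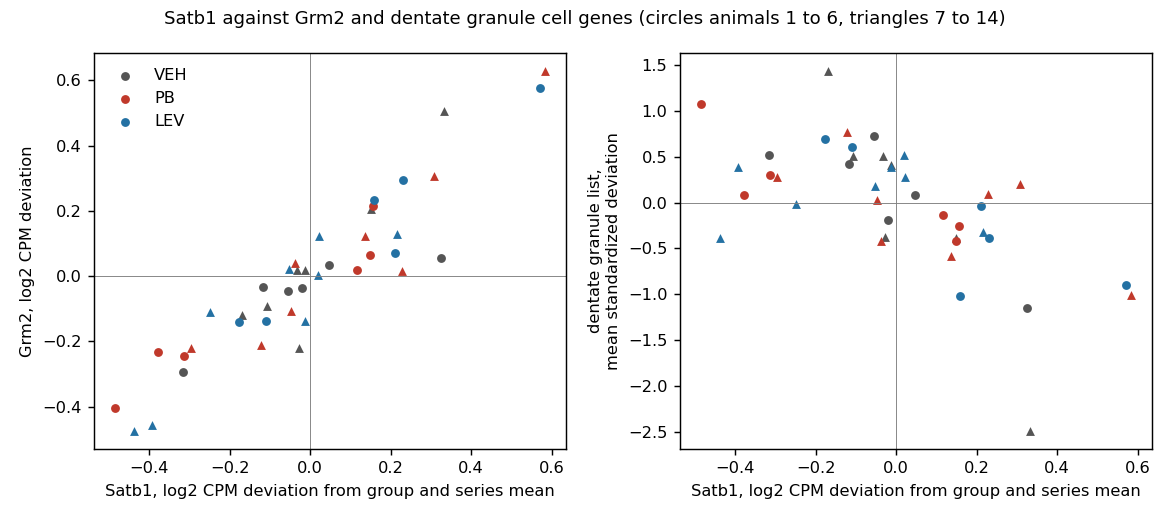
Deviation of Satb1 from its group and series mean (log2 CPM) in each of the 41 animals against the same deviation of Grm2 (log2 CPM) and against the mean standardized deviation of the dentate granule list. Points rise together for Grm2 (r = 0.924) and fall for the dentate granule list (r = -0.627), with animals of all 3 groups along each trend.

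The members were next compared with each other, to see whether factors of 1 lineage varied together between animals. Of 21 pairs, 6 had an adjusted p under 0.05 for Pearson's r (permutation test, group and series means removed). Lhx6 was correlated with Dlx1 (r = 0.487, adjusted p = 0.0237), Dlx2 (0.424, 0.0304) and Sox6 (0.447, 0.0304). Dlx1 was correlated with its neighbour Dlx2 (0.382, 0.0470) and with Dlx5 (0.422, 0.0304), and negatively with Satb1 (-0.393, 0.0470). By Spearman's rho 2 of these pairs had an adjusted p under 0.05, Lhx6 with Sox6 (0.447) and Dlx1 with Dlx5 (0.451), each with an adjusted p of 0.0390.

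All 6 pairs had the same sign in each series, but none passed within a single series, and 1 pair of 21 passed without the 2 animals farthest from the median. Without them r was 0.390 for Lhx6 and Dlx1, 0.316 for Lhx6 and Dlx2, 0.486 for Lhx6 and Sox6, 0.302 for Dlx1 and Dlx2, 0.325 for Dlx1 and Dlx5 and -0.323 for Dlx1 and Satb1. Leaving out the extremes of 1 gene of a pair narrows its range and tends to lower r. This check therefore cannot tell whether the relations rest on a few animals. Npas1 had no pair with an adjusted p under 0.05, and its r to the other members lay between -0.268 and -0.0017.

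**Figure D5:**
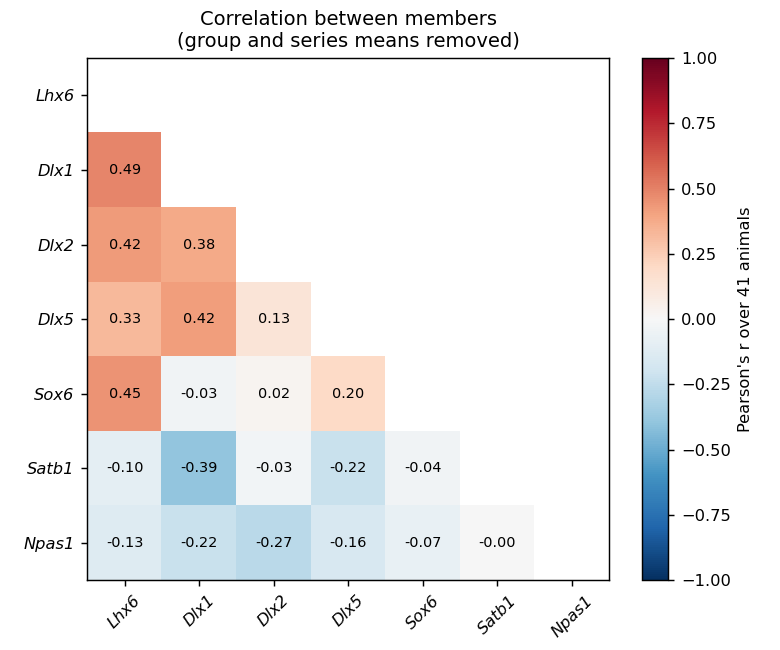
Pearson's r between the levels of each pair of members over 41 animals, with group and series means removed (red positive, blue negative). Lhx6, Dlx1, Dlx2 and Dlx5 form a positive block (0.13 to 0.49), Lhx6 and Sox6 reach 0.45, and Satb1 and Npas1 are near 0 or negative to all others.

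For the other members, the 3 transcripts most like each in level over the 41 animals had lower r than those of Satb1. For Sox6 they were Slc4a4 (r = 0.808), a bicarbonate cotransporter of astrocytes, Tulp4 (0.765) and Zhx3 (0.755). For Npas1 they were Inpp5j (0.687), Ilk (0.671) and Dagla (0.637), of which Dagla makes the endocannabinoid 2-arachidonoylglycerol. After PB, Inpp5j (log2 fold change -0.22 against VEH, adjusted p = 0.0290) and Dagla (-0.15, adjusted p = 0.0322) were lower by edgeR (quasi-likelihood, Benjamini-Hochberg), and Ilk was not (-0.00057, adjusted p = 0.995). For Lhx6 they were Wdr6 (0.710), Rxfp3 (0.693), a relaxin-3 receptor, and Tspan9 (0.683). For Dlx1 they were Ick (0.621), Cdca7 (0.605) and Klhl14 (0.599), for Dlx2 Sema4b (0.560), Aurkb (0.542), a kinase of mitosis, and Polr3b (0.532), and for Dlx5 S1pr2 (0.619), Mblac2 (0.618) and Akna (0.612). These transcripts were the top 3 of 13062 and are given without a test of the correlation. Of those named for members other than Npas1, none had an adjusted p under 0.05 against VEH by edgeR after either drug. Slc4a4 had -0.25 after PB (adjusted p = 0.153) and -0.35 after LEV (adjusted p = 0.526) in that test.

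Other transcription factors of the lineage were examined from a list of 21, of which 16 had a tested transcript (18 transcripts). None had an adjusted p under 0.05 in any of the 3 comparisons, and at an unadjusted p under 0.05 there were 0 in PB against VEH, 0 in LEV against VEH and 3 higher and 1 lower in PB against LEV by edgeR. Over all transcripts 20.2%, 5.84% and 19.6% passed the unadjusted limit in these 3 comparisons. The median log2 fold change in PB against VEH was 0.03 over this list and -0.02 over the 7 members, beside 0.0046 over all transcripts. In LEV against VEH it was 0.016 over the list, 0.0042 over the members and 0.00033 over all transcripts. Nkx2-1, the factor that starts the MGE program and is lost from migrating cortical and hippocampal interneurons, was low (medians 1.32, 1.35 and 1.41 CPM in VEH, PB and LEV). Lhx8, a factor of cholinergic neurons from the same region, had no count in 13 of 13 VEH, 11 of 14 PB and 11 of 14 LEV animals and was not tested, with at most 5 counts elsewhere. Dlx6, Npas3 and Zfhx3 were not analysed here.

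Over the animals, Lhx6, Dlx1 and Dlx5 rose and fell with this list (Pearson's r = 0.481, 0.509 and 0.455, permutation test, adjusted p = 0.0219, 0.0171 and 0.0287). By Spearman's rho the adjusted p was 0.218 for Lhx6, 0.0451 for Dlx1 and 0.159 for Dlx5. Without the 2 animals farthest from the median r was 0.347, 0.374 and 0.340. Dlx1 and Dlx5 were negatively related to the pyramidal neuron list (r = -0.435 and -0.504, adjusted p = 0.0369 and 0.0171, permutation test, and rho = -0.343 and -0.408, adjusted p = 0.159 and 0.0881), while Npas1 was positively related to it (r = 0.585, adjusted p = 0.00193, and rho = 0.661, adjusted p = 0.00077). With Tbr1, a transcript of that list, as a covariate Npas1 in PB against VEH was -0.17 (adjusted p = 0.0564 by edgeR). Beyond this covariate the part of pyramidal neurons in the Npas1 difference after PB was not tested. Lhx6 was related to the striatal neuron list (r = 0.445, adjusted p = 0.0302, permutation test, rho = 0.351, adjusted p = 0.159), whose summed level ranged from 65.0 to 107 CPM in VEH, 74.4 to 121 CPM in PB and 81.5 to 131 CPM in LEV. Sox6 was related to the oligodendrocyte precursor list (r = 0.460, adjusted p = 0.0287, permutation test, rho = 0.403, adjusted p = 0.0881). Satb1 was negatively related to it by r (-0.474, adjusted p = 0.0228, permutation test), but rho did not pass (-0.407, adjusted p = 0.0881).

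The genes that mature interneurons use to make and package GABA were set beside the factors that specify those cells. Slc32a1, the vesicular GABA transporter (log2 fold change in PB against VEH -0.27, SE 0.06, adjusted p = 0.00367) was lower by edgeR (quasi-likelihood, Benjamini-Hochberg), without reaching the fold limit. The GABA-synthesizing enzymes Gad1 (-0.16, adjusted p = 0.0605) and Gad2 (-0.11, adjusted p = 0.411) did not pass in that edgeR test. The median log2 fold change over these 3 genes was -0.16. Between animals, Npas1 and this list had a Pearson's r of 0.0013 and a rho of -0.092 (permutation test, adjusted p = 0.994 and 0.782).

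Among 22 transcripts of 16 genes typical of MGE interneurons, 4 were lower in PB against VEH at an adjusted p under 0.05, a limit that 3.46% of all transcripts passed in that direction, and none was higher, with a median log2 fold change of -0.16. Of these, Sst, the peptide somatostatin (-0.38, SE 0.07, adjusted p = 0.00183), and Pvalb, the calcium-binding protein parvalbumin (-0.83, SE 0.22, adjusted p = 0.0188), were differentially expressed by edgeR, and the potassium channel gene Kcnc1 (-0.21) and 1 of 2 transcripts of the potassium channel gene Kcnc2 (-0.29) were lower below the fold limit. The other Kcnc2 transcript was at -0.0036. Npy was counted as 2 of the 22 transcripts, with the same values in both. Pvalb rested on few reads, with 10 to 149 counts per animal in PB and 28 to 95 in VEH. In PB, 13 of 14 animals had less Pvalb than the VEH mean of their series. The highest PB animal (12.9 CPM) was nevertheless above the highest VEH animal (8.3 CPM). Lhx6, Sox6 and Satb1, the members that act upstream of Sst and Pvalb, had -0.12, 0.0025 and 0.20 in the same comparison, none with an adjusted p under 0.05 by edgeR. The difference between these factors and their products was not tested. Among 10 transcripts typical of CGE interneurons, Lamp5 (-0.55) and Tac3 (-0.41) were differentially expressed and lower, and Calb2 was higher below the fold limit (0.32). Over all transcripts 0.605% were differentially expressed in PB against VEH, and 5.39% had an adjusted p under 0.05. In LEV against VEH no transcript of these lists had an adjusted p under 0.05. At an unadjusted p under 0.05 there were 0 of 3 for GABA synthesis and packaging, 0 of 22 for MGE and 1 of 10 for CGE by edgeR. Over all transcripts 5.84% passed that limit in LEV against VEH. Ndnf was not analysed here.

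Markers of other cells that express members or border the dissection were counted in the same way. In PB against VEH, 0 of 9 striatal neuron transcripts, 1 of 11 oligodendrocyte precursor transcripts (C1ql1, -0.22), 1 of 5 pyramidal neuron transcripts (Camk2a, -0.26), 1 of 6 transcripts of neuroblasts and progenitors (Sox11, 0.31), 0 of 4 dentate granule transcripts and 0 of 9 choroid plexus transcripts had an adjusted p under 0.05 by edgeR. Over all transcripts 5.39% passed that limit in PB against VEH and 4.45% in PB against LEV. In PB against LEV, 1 of 4 Vcan transcripts (0.30), Dcx (0.29), Gad1 (-0.18) and Cck (-0.18) passed that limit without passing it in PB against VEH. The other Vcan transcripts were at 0.51, -0.48 and 0.11. Adora2a among the striatal and Otx2 among the choroid plexus transcripts each had duplicate entries with the same levels. The summed choroid plexus list spread widely in every group, from 6.14 to 4669 CPM in VEH, 8.60 to 7410 CPM in PB and 6.47 to 5346 CPM in LEV. With that list as a covariate Npas1 in PB against VEH had an adjusted p of 0.0425 by edgeR, and with Tbr1 in its place 0.0564.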

How the data were processed

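Total RNA of 42 hippocampi was sequenced after library preparation with the NEBNext Ultra RNA kit. Per the labels and the study's methods, the authors aligned reads to rn6 with STAR 2.7.3a and deposited estimated counts per RefSeq transcript from the Partek E/M step, without normalization. Their deposited table of DESeq2 comparisons (fold changes, p-values) was not used. Here the estimated counts were rounded and analysed with edgeR 4.0.16 in R 4.3.3: TMM, filterByExpr, glmQLFit and glmQLFTest on 41 animals with treatment and code series as terms, and Benjamini-Hochberg adjustment over 13062 transcripts. The difference of effects between series came from group-by-series terms. CPM used effective library sizes of 9588079 to 13786159. Correlations used log2 CPM (prior count 2) with group and series means removed and 100000 permutations. The members, the gene lists and the rule for named genes (every list transcript with an adjusted p under 0.05, set examples, and the 3 transcripts most like each member) were chosen with earlier results of these data known. Alternatives included DESeq2 1.42.0, other scaling and filters, each series alone, the replicate block, covariates and each animal left out. Some genes of these lists are not reported here. The Tbr1 and 18S covariates and all alternatives for the effects by series were chosen after seeing the data.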

Additional observations from a re-analysis of the deposited data

Results flagged for a closer look

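The effects on Sox6 differed between the 2 series of animals. The PB effect was higher in series 2 than in series 1 by 0.65 on the log2 scale (unadjusted p = 8.15e-05, adjusted p = 0.0807 by edgeR), and the LEV effect by 0.94 (adjusted p = 0.00032 by edgeR). The LEV effect on Lhx6 was higher in series 2 by 0.27, at the unadjusted level only (p = 0.0245, adjusted p = 0.304 by edgeR's quasi-likelihood test).

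The excluded VEH animal, which takes no part in the comparisons, had 19.4 CPM of Sox6, 149 CPM of Satb1 and 42.3 CPM of Npas1, each above all 13 other VEH animals (highest 11.6, 105 and 40.8 CPM). Its Dlx1 level of 29.8 CPM was below all 13 (lowest 36.9 CPM), and Lhx6, Dlx2 and Dlx5 lay within their range. The 18S share of this animal was 2.42%, where the medians of the other groups by series lay between 0.507% and 1.15%.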

How the results depend on the processing

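Of 16 alternatives for each treatment comparison, 12 kept Npas1 under an adjusted p of 0.05 (DESeq2 in 2 of the alternatives, edgeR in the others) in PB against VEH and 12 in PB against LEV, always with the same direction. In PB against VEH it was lost in series 1 alone (-0.21), series 2 alone (-0.15), with animal number as replicate block (-0.16, adjusted p = 0.0696) and with the Tbr1 covariate (-0.17, adjusted p = 0.0564), so that the count of members under 0.05 was 0 in place of 1. In PB against LEV it was lost in each series alone (-0.26 and -0.13), with all 14 VEH animals (-0.19) and with the 18S covariate (-0.17), again a count of 0. With single animals left out that count ranged from 0 to 1 in PB against VEH and from 0 to 2 in PB against LEV, and was 0 in LEV against VEH, where it was 1 in series 1 alone (Sox6, -0.63). Treatments were balanced within litter, but the litter is not in the labels used here and was not a term in the main model. Same-numbered animals of different groups had deviations correlated between -0.351 and 0.282, and 1 of 41 animals matched best with its own number. These values gave no clear sign that the number stands for the litter, and cannot show that the animals were unpaired. The replicate block changed no other member call.

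Differentially expressed transcripts numbered 79 in PB against VEH, but 17 in series 1, 168 in series 2 and 142 with the Tbr1 covariate (52 to 115 with animals left out, 52 without PB animal 7). In LEV against VEH they numbered 0, but 5 by DESeq2, 1 without the filter, 5 with group-by-series terms, 14 by DESeq2 after a subtraction of series effects written here to imitate the study's, 170 in series 1, 6 in series 2 and 7 with the 18S covariate (0 to 4 with animals left out). In PB against LEV they numbered 76, but 36 by DESeq2, 115 with the subtraction, 24 in series 1 and 34 with all 14 VEH animals (39 to 101 with animals left out, 39 without PB animal 7 and 50 without LEV animal 2). Differences between series with an adjusted p under 0.05 numbered 9 for PB, but 59 by DESeq2 (1 member, Sox6, 0.65), 1 with all 14 VEH animals and 3 with the 18S covariate (1 to 38 with animals left out, members 0 to 1). For LEV they numbered 110, but 215 by DESeq2, 6 with all 14 VEH animals (0 members) and 357 with the 18S covariate (2 members, Satb1 at -0.73 beside Sox6), with 60 to 230 and 1 to 2 members with animals left out. The 6 correlated pairs became 1 with group and series means kept, 0 in series 1, 0 in series 2 and 1 without the 2 farthest animals. The causes were not tested.

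Small differences changed sign. In PB against VEH, Dlx2 was -0.043 in series 2. Dlx5 was 0.051 in series 1, 0.017 with the replicate block, 0.029 with all 14 VEH animals and 0.035 with the Tbr1 covariate (-0.074 to 0.018 with animals left out). Sox6 was -0.0023 without the filter, -0.0065 with group-by-series terms, -0.0040 with the subtraction, -0.33 in series 1, -0.015 with the block, -0.097 with all 14 VEH animals, -0.013 with the choroid plexus covariate and -0.063 with the 18S covariate (-0.047 to 0.045 with animals left out). In LEV against VEH, series 2 alone gave 0.099 for Lhx6, 0.021 for Dlx5, 0.30 for Sox6 and -0.019 for Npas1, and series 1 alone -0.030 for Dlx1. Npas1 was -0.0089 with all 14 VEH animals and -0.017 with the 18S covariate. Dlx2 was -0.00061 without the series term, -0.0010 with group-by-series terms, -0.0047 with the subtraction, -0.015 in series 1, -0.038 with all 14 VEH animals, -0.0044 with the choroid plexus covariate and -0.015 with the 18S covariate. With animals left out Dlx1 ranged from -0.0064 to 0.039, Dlx2 from -0.042 to 0.074, Lhx6 from -0.049 to 0.025 and Npas1 from -0.016 to 0.031. In PB against LEV, Dlx1 was 0.0073 in series 1, and Dlx2 and Dlx5 were -0.061 and -0.087 in series 2. Satb1 was -0.0029 without the filter, -0.0030 without the series term, -0.031 with group-by-series terms, -0.033 with the subtraction, -0.28 in series 1, -0.0072 with the block, -0.0027 with all 14 VEH animals, -0.00013 with only both groups compared, -0.00086 with the choroid plexus covariate and -0.10 with the Tbr1 covariate (-0.052 to 0.052 with animals left out). Between series, the PB effect on Satb1 was -0.16 with the 18S covariate, and the LEV effect on Dlx2 was -0.031 with all 14 VEH animals and -0.032 with the 18S covariate (-0.072 to 0.17 with animals left out). Dlx2 and Dlx5, with 26 to 105 counts per animal, are limited most by depth.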
